A study of Mus musculus with 8 samples.

Results

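The genes described here are 10 genes of the insulin signalling pathway, Insr, Irs1, Irs2, Grb14, Pik3r1, Pik3ca, Akt1, Akt2, Foxo1 and Pde3b, read in bulk RNA-seq of brown adipose tissue (BAT). They were taken by name from a count table of 31053 genes, and all 10 had enough counts to be tested. BAT of 4 wild type (WT) mice was compared with BAT of 4 Ucp1Δ/Δ mice, a line made by crossing mice with floxed Pnpla2 alleles (Pnpla2 fl/fl) with mice that carry a Cre recombinase driven by Ucp1. The labels call the second group ATGLKO, after ATGL, the triglyceride lipase encoded by Pnpla2. Because Cre follows Ucp1, the deletion falls in thermogenic adipocytes, and the other cells of the tissue keep the gene. All 8 mice were males of the strain labelled C57BL6/J and were fed a normal diet. Whether the WT mice carried floxed alleles is not given in the sources used here. The labels give an age of 10 weeks and the study's own text a younger age. The comparison asks how transcripts of the insulin pathway stand in BAT whose thermogenic adipocytes lack ATGL.

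Insulin binds a receptor tyrosine kinase, which phosphorylates insulin receptor substrates, and these dock the lipid kinase PI3K. PI3K makes a membrane lipid that recruits and activates the kinase AKT, which in turn holds FOXO transcription factors out of the nucleus, moves the glucose transporter GLUT4 to the cell surface and activates the phosphodiesterase PDE3B. In fat cells PDE3B breaks down cAMP, the messenger that switches lipolysis on, and through it insulin restrains lipolysis.

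Among the 10 genes, 1 was higher and 1 was lower in Ucp1Δ/Δ than in WT BAT, and the other 8 did not pass the test. Grb14, an inhibitor of the insulin receptor, was 2.39-fold higher, and Pde3b, which carries the antilipolytic arm of insulin action, was at 0.503 of its WT level. A gene was called where its adjusted p was under 0.05 in the quasi-likelihood test of edgeR, adjusted by Benjamini-Hochberg over all genes tested. By that rule 21.0% of the 8930 genes tested were called, 13.3% as higher and 7.63% as lower, so 1 of 10 in each direction (10.0%) lies near the background of the whole tissue. The values of the 4 mice of each genotype did not overlap for 2 of the 10 genes, against 23.7% of all genes. The median log2 fold change (log2FC, Ucp1Δ/Δ against WT) of the 10 genes was -0.16, beside -0.01 over all genes tested, and the median size of the change was 0.26, beside 0.34. Of the 10 fold changes, 3 lay above 0 and 7 below.

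**Figure D1:**
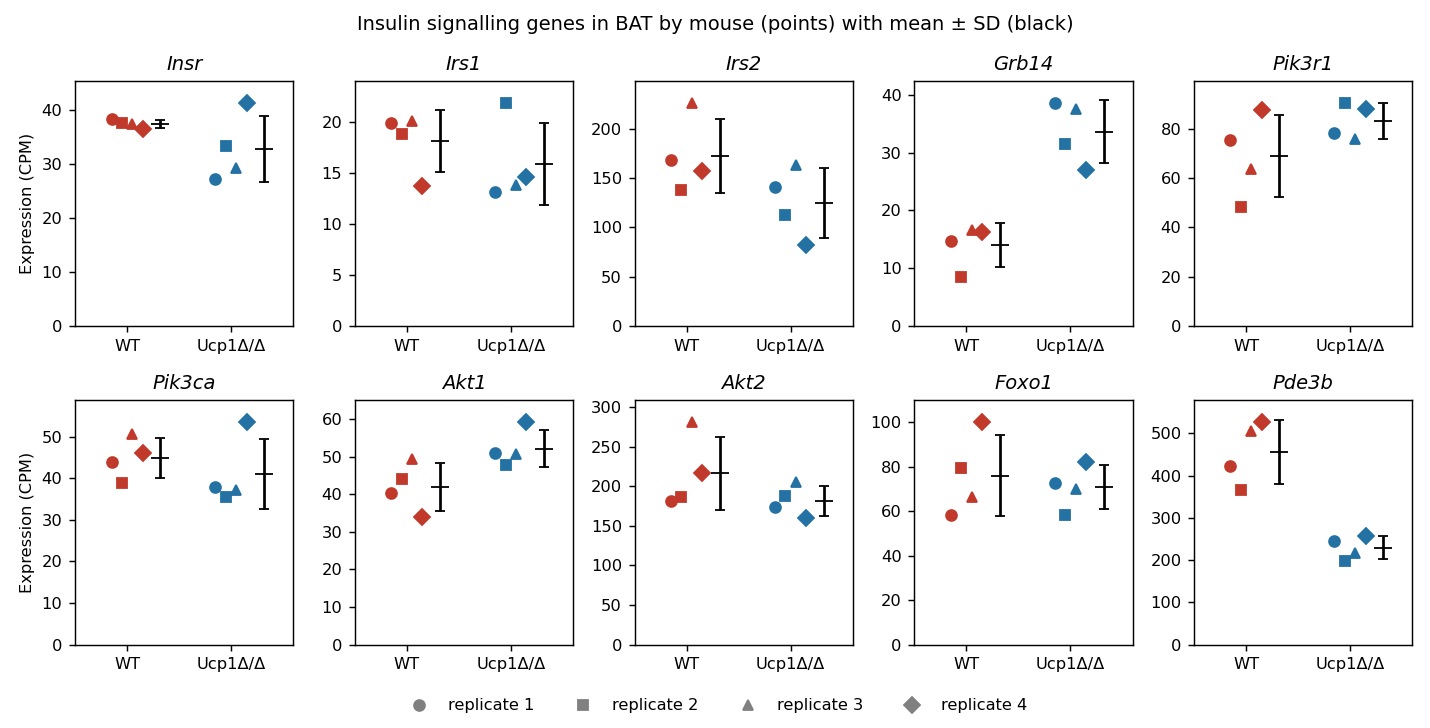
Expression of the 10 insulin signalling genes in CPM (counts scaled to the size of the library) by mouse, WT in red and Ucp1Δ/Δ in blue, with the mean ± SD (n = 4) in black; each panel has its own axis, which starts at 0. Grb14 (8.51 to 16.7 against 27.0 to 38.6 CPM) and Pde3b (366 to 527 against 197 to 258 CPM) are the panels in which the genotypes do not overlap.

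The libraries held 2017697 to 3115956 counts, of which the 10 genes took 0.0875% to 0.127%. The smallest count of any of them in a mouse was 19 and the largest 1517, while a limit of 3 counts stood at 0.933 to 1.53 CPM (counting error only). Pnpla2, the deleted gene, was at 2913 ± 191 CPM (SD, n = 4) in WT and 474 ± 59.2 CPM in Ucp1Δ/Δ mice (log2FC -2.62, adjusted p = 1.97e-07), and every library matched its label. In the labels the cell type is given as stromal vascular fraction, the cells left when adipocytes are removed, but adipocyte markers (Adipoq, Plin1, Fabp4 and 4 more) summed to at least 6350 CPM in every library, so adipocyte RNA was present throughout. Their sum was 9184 to 11190 CPM in WT and 6350 to 8909 CPM in Ucp1Δ/Δ mice, with 3 of 7 genes lower and 1 (Lep) higher. Of 7 brown adipocyte markers (summed 5512 to 13060 against 4346 to 7564 CPM), 2 were lower and 1 was higher. All 8 macrophage markers were higher (88.8 to 150 against 957 to 1537 CPM), as were 4 of the 5 fibroblast and progenitor markers tested (262 to 337 against 587 to 980 CPM). None of 5 endothelial markers was called by edgeR (133 to 162 against 175 to 190 CPM), with 2 at an unadjusted p under 0.05, 1 called by limma voom and 0 by DESeq2 or limma trend. Lymphocyte markers summed to at most 7.78 CPM, with Cd79a at 0, and hepatocyte markers to at most 0.896 CPM, too low to be tested. Skeletal muscle markers ranged from 14.4 to 1112 CPM in WT and from 46.8 to 1518 CPM in Ucp1Δ/Δ mice, being highest in WT mouse 1 and Ucp1Δ/Δ mouse 2, and none of the 5 was called by edgeR, DESeq2, limma voom or limma trend (0 at an unadjusted p under 0.05 from edgeR).

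**Figure D2:**
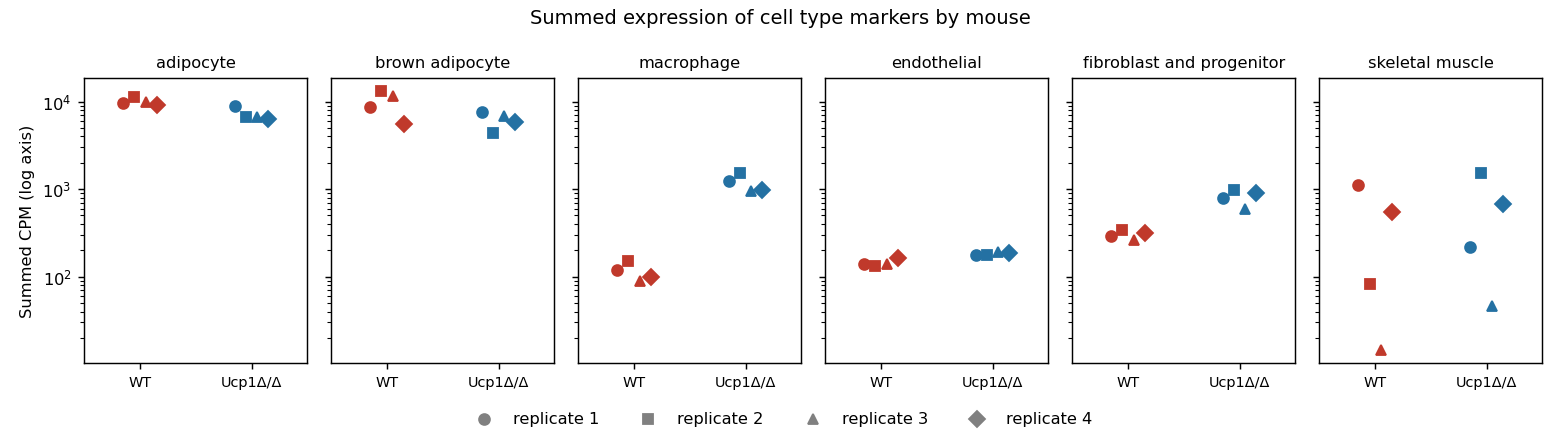
Summed expression of cell type marker lists in CPM (log axis) by mouse, WT in red and Ucp1Δ/Δ in blue. Macrophage and fibroblast sums are higher in all 4 Ucp1Δ/Δ mice (957 to 1537 and 587 to 980 CPM), the adipocyte sum is lower in them (6350 to 8909 CPM), and the skeletal muscle sum spreads widely within both genotypes.

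The transcripts at the top of the pathway, those of the receptor and its substrates, did not pass the test. Insr, which encodes the insulin receptor, was read at 38.2, 37.6, 37.4 and 36.5 CPM in WT mice 1 to 4. In Ucp1Δ/Δ mice 1 to 4 it was read at 27.2, 33.3, 29.3 and 41.2 CPM. The WT spread of 0.734 CPM (SD) is smaller than counting error alone gives at raw counts of 75, 84, 112 and 72, so it does not measure how closely WT levels were held. Mice 1 to 3 of the Ucp1Δ/Δ group lay below every WT mouse and mouse 4 lay above them all, so the groups overlapped. The log2FC was -0.20 (95% interval -0.58 to 0.19, adjusted p = 0.494). Insr lies on the minus strand of chromosome 8 (3122061 to 3279617 of mm10).

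Irs1 and Irs2 encode the main docking proteins that link the receptor to PI3K. Irs2 was read at 168, 138, 226 and 157 CPM in WT mice 1 to 4 and at 141, 112, 163 and 82.0 CPM in Ucp1Δ/Δ mice 1 to 4. The highest of the 8 values was in WT mouse 3 and the lowest in Ucp1Δ/Δ mouse 4, with the other 6 overlapping. Its log2FC of -0.47 (95% interval -0.93 to -0.0020, unadjusted p = 0.0492 from edgeR) did not pass after adjustment (adjusted p = 0.152). Irs2 ranked 2897 of 8930 by p, and it passed with limma voom and sample quality weights (log2FC -0.61, adjusted p = 0.0466) but with no other setting tried. Irs1 was read at 18.1 ± 3.0 CPM in WT and 15.8 ± 4.03 CPM in Ucp1Δ/Δ mice (SD, n = 4, log2FC -0.19, 95% interval -0.68 to 0.30, adjusted p = 0.612). WT mouse 4, at 13.7 CPM, lay below the other WT mice, and Ucp1Δ/Δ mouse 2, at 21.8 CPM, was the highest of all 8. Irs1 (chromosome 1, 82233101 to 82291416) and Irs2 (chromosome 8, 10984681 to 11008458) are both on the minus strand. Exons of each overlap a gene on the opposite strand: Gm9747, over Irs1, had 0 counts, and the transcript over Irs2 is not in the table used here. Whether counting used strand is not given in the sources used here.

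Grb14 encodes an adaptor that binds the activated insulin receptor and blocks its kinase, and it was the member with the largest fold change. It was read at 14.8, 8.51, 16.7 and 16.2 CPM in WT mice 1 to 4 and at 38.6, 31.4, 37.6 and 27.0 CPM in Ucp1Δ/Δ mice 1 to 4, from raw counts of 29, 19, 50 and 32 against 109, 101, 90 and 63. The lowest Ucp1Δ/Δ mouse stood well above the highest WT mouse. The mean rose from 14.1 ± 3.78 to 33.7 ± 5.43 CPM (SD, n = 4), with a log2FC of 1.25 (SE 0.23, 95% interval 0.77 to 1.74, edgeR adjusted p = 0.00100). Across the other settings tried the log2FC of Grb14 lay between 1.07 and 1.39, and with WT mouse 1 and Ucp1Δ/Δ mouse 2, the mice highest in muscle markers, left out it was 1.32 (adjusted p = 0.0109). Macrophage and fibroblast markers were higher in the same 4 mice, by the sums given above, and their part in the Grb14 difference was not tested. In bulk tissue, more RNA of a gene per cell and more cells of a type that carries it cannot be told apart, and the same holds for a decrease.

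Grb14 lies on the minus strand of chromosome 2 (64912476 to 65024987 of mm10). Its promoter stretch is shown because Grb14 was the gene that rose. RefSeq windows of build GRCm38.p6, from 250 bases before to 50 after a transcript start, were found for 8 of the 10 genes (13 windows) and searched on both strands. Printed here are bases 250 to 22 before the start (chr2:65022788-65023016, minus strand, 5′ to 3′), and capitals mark the GC box, GGGCGG, here as its reverse complement CCGCCC.

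Grb14 promoter: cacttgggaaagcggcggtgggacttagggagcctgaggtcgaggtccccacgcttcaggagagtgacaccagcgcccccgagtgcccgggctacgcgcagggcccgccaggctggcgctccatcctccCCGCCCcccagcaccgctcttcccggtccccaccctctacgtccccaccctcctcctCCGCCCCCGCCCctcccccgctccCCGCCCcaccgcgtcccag

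The stretch holds 4 GC boxes, a pair of them directly next to each other, and lies within an intron of the non-coding transcript Grb14-205. The whole window of 300 bases holds 5 and is 75.3% G or C, beside a median of 52.7% over all 32851 windows. At least 1 GC box was found in 8 of the 13 windows, at least 1 window for each of the 8 genes, and in 35.7% of all windows. The CCAAT box (CCAAT) was in windows of Akt2, Foxo1, Irs2 and Pik3r1 (37.4% of all windows), the E-box (CACGTG) in those of Irs1 and Irs2 (7.15%) and the FOXO core (GTAAACA) in that of Akt1 (3.65%). No window of these genes held the cAMP response element TGACGTCA (1.79% of all windows) or the sterol response element TCACNCCAC (1.24%). None of these matches overlapped another kind in the Grb14 stretch, where the GC box was the motif found.

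Pik3r1 encodes the regulatory subunit p85 alpha of PI3K and Pik3ca the catalytic subunit p110 alpha, and neither passed the test. Pik3r1 was at 68.8 ± 16.8 CPM in WT and 83.0 ± 7.18 CPM in Ucp1Δ/Δ mice (SD, n = 4; log2FC 0.27, 95% interval -0.13 to 0.67, adjusted p = 0.346). Its WT values ran from 48.4 CPM in mouse 2 to 87.6 CPM in mouse 4 and spanned most of the Ucp1Δ/Δ range of 75.6 to 90.2 CPM. Pik3ca was at 44.9 ± 4.90 and 41.0 ± 8.47 CPM (log2FC -0.14, 95% interval -0.53 to 0.25, adjusted p = 0.654). Ucp1Δ/Δ mice 1 to 3 held 35.5 to 37.9 CPM of Pik3ca, below all WT mice (39.0 to 50.8 CPM), while Ucp1Δ/Δ mouse 4 held the highest value of all, 53.7 CPM. That mouse was also the highest of its group for Insr. Pik3r1 lies on chromosome 13 (101680563 to 101768217, minus strand) and Pik3ca on chromosome 3 (32397671 to 32468486, plus strand).

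The fold changes of the AKT kinases had opposite signs, and neither passed the test. Akt1, the broadly expressed kinase, was read at 40.3, 43.9, 49.4 and 33.9 CPM in WT mice 1 to 4 and at 51.0, 47.6, 50.6 and 59.2 CPM in Ucp1Δ/Δ mice 1 to 4. Ucp1Δ/Δ mouse 2 lay below WT mouse 3, and the remaining mice were separate. The log2FC of Akt1 was 0.31 (95% interval -0.06 to 0.67, adjusted p = 0.236). Akt2, the isoform tied most closely to insulin-stimulated glucose uptake, was read at 181, 186, 282 and 217 CPM in WT mice and at 174, 187, 205 and 160 CPM in Ucp1Δ/Δ mice. WT mice 3 and 4 stood above every Ucp1Δ/Δ mouse, and WT mice 1 and 2 lay within the Ucp1Δ/Δ range (log2FC -0.26, 95% interval -0.64 to 0.13, adjusted p = 0.355). Akt1 lies on chromosome 12 (112653821 to 112674884, minus strand) and Akt2 on chromosome 7 (27591552 to 27640826, plus strand).

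Foxo1, the transcription factor that AKT excludes from the nucleus, had the smallest change of the 10 genes. It was at 76.0 ± 18.4 CPM in WT and 70.9 ± 9.98 CPM in Ucp1Δ/Δ mice (SD, n = 4; log2FC -0.10, 95% interval -0.51 to 0.31, adjusted p = 0.765), and its sign turned under some settings. All 4 Ucp1Δ/Δ values, 58.2 to 82.4 CPM, lay within the WT range of 58.1 to 100.3 CPM. The antisense gene Gm20402, which shares exon sequence with Foxo1 (chromosome 3, 52268336 to 52353221, plus strand), had 0 counts. These are transcript levels, which carry no information on FOXO1 location or phosphorylation.

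Pde3b, the cAMP phosphodiesterase at the end of the insulin arm that restrains lipolysis, was the member with the smallest p, at rank 485 of the 8930 genes (Grb14 ranked 546). It was read at 423, 366, 507 and 527 CPM in WT mice 1 to 4 and at 245, 197, 217 and 258 CPM in Ucp1Δ/Δ mice 1 to 4. The lowest WT mouse stood above the highest Ucp1Δ/Δ mouse by more than the whole range of the Ucp1Δ/Δ mice. The mean went from 456 ± 75.1 to 229 ± 27.3 CPM (SD, n = 4), with a log2FC of -0.99 (SE 0.17, 95% interval -1.36 to -0.62, edgeR adjusted p = 0.000656). The log2FC of Pde3b lay between -1.09 and -0.86 across the other settings tried, and was -0.95 (adjusted p = 0.0120) with the mice highest in muscle markers left out. Beside it, the adipocyte markers Adipoq and Plin1 stood at 0.566 and 0.532 of their WT levels, and Cidec was lower too. Fabp4, Lipe and Pparg had log2FC of -0.39, -0.36 and -0.33 and were not called by edgeR, which called 4 of the 7 adipocyte markers (Lep as higher), while DESeq2 called 6. The part of the adipocyte marker change in that of Pde3b was not tested. Pde3b lies on the plus strand of chromosome 7 (114415281 to 114539251).

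**Figure D3:**
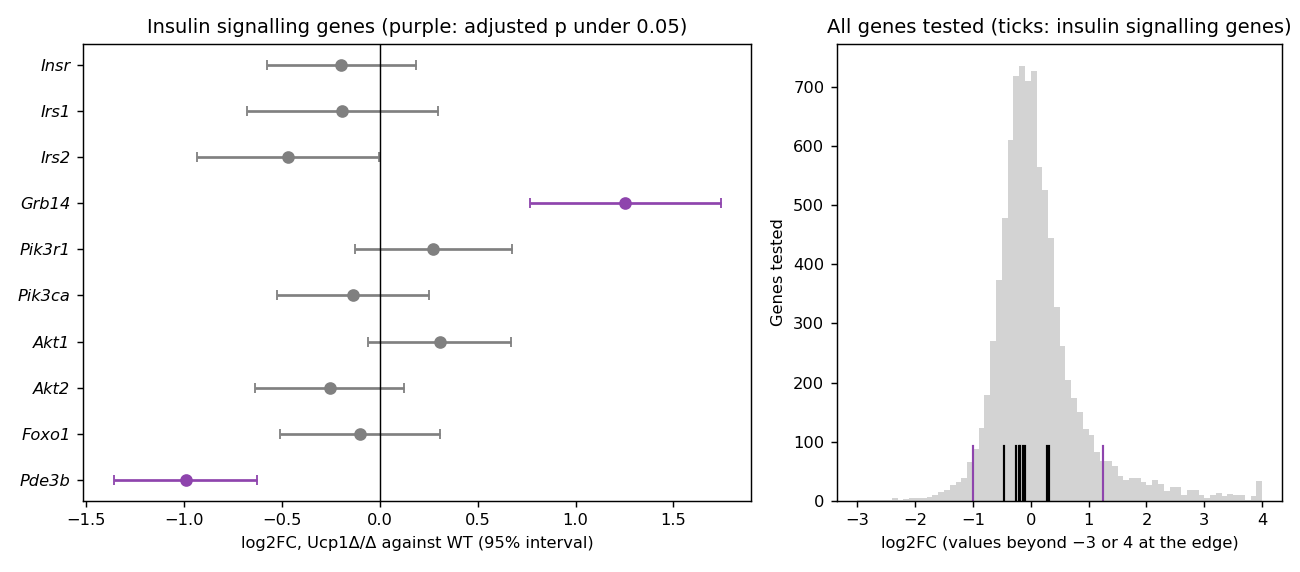
Left, log2FC (Ucp1Δ/Δ against WT) of the 10 insulin signalling genes with 95% intervals, purple where the adjusted p was under 0.05; right, the distribution of log2FC over the 8930 genes tested, with the 10 genes as ticks. Grb14 (1.25) and Pde3b (-0.99) have intervals clear of 0 and passed after adjustment; the interval of Irs2 (-0.47) reaches to just below 0 and it did not pass.

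Ratios of paired genes within a mouse do not depend on how its library was scaled, apart from a prior count added to each gene. That prior count was 2, scaled by library size. They compare the same pair between genotypes and not the amounts of the genes, since CPM is not corrected for transcript length. The mean log2 ratio of 6 pairs was compared by exact permutation of the genotypes (two-sided), and for 4 mice against 4 the smallest p this allows is 0.0286. The log2 ratio of Grb14 to its target Insr was -1.41 ± 0.44 in WT and 0.04 ± 0.49 in Ucp1Δ/Δ mice (SD, n = 4), a difference of 1.45 without overlap (exact permutation p = 0.0286, 0.0571 adjusted over the 6 pairs). Akt2 to Akt1 was lower in all 4 Ucp1Δ/Δ mice, at 2.34 ± 0.28 against 1.79 ± 0.27, a difference of -0.55 with the same exact p values. This ratio separated the genotypes although neither gene alone passed the test across genes. Insr to Igf1r, the receptor of IGF-1, went from 1.03 ± 0.90 to -0.07 ± 0.22, a difference of -1.10 with again the same exact p values, and WT mouse 2, at 2.35, was far above the other WT mice (0.35 to 0.85). Without that mouse the difference was -0.66. Pde3b to Lipe, the hormone-sensitive lipase of the same cells, was at -1.0 ± 0.45 in WT and -1.62 ± 0.18 in Ucp1Δ/Δ mice (difference -0.63, exact permutation p = 0.0571, adjusted 0.0857). WT mouse 2, at -1.61, lay among the Ucp1Δ/Δ mice for this pair. Pik3r1 to Pik3ca (difference 0.44, exact permutation p = 0.0857, adjusted 0.103) and Irs2 to Irs1 (difference -0.29, exact permutation p = 0.371, adjusted 0.371) overlapped between genotypes. No pair passed 0.05 after adjustment: with 6 pairs, fewer than 4 at the smallest p cannot do so.

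**Figure D4:**
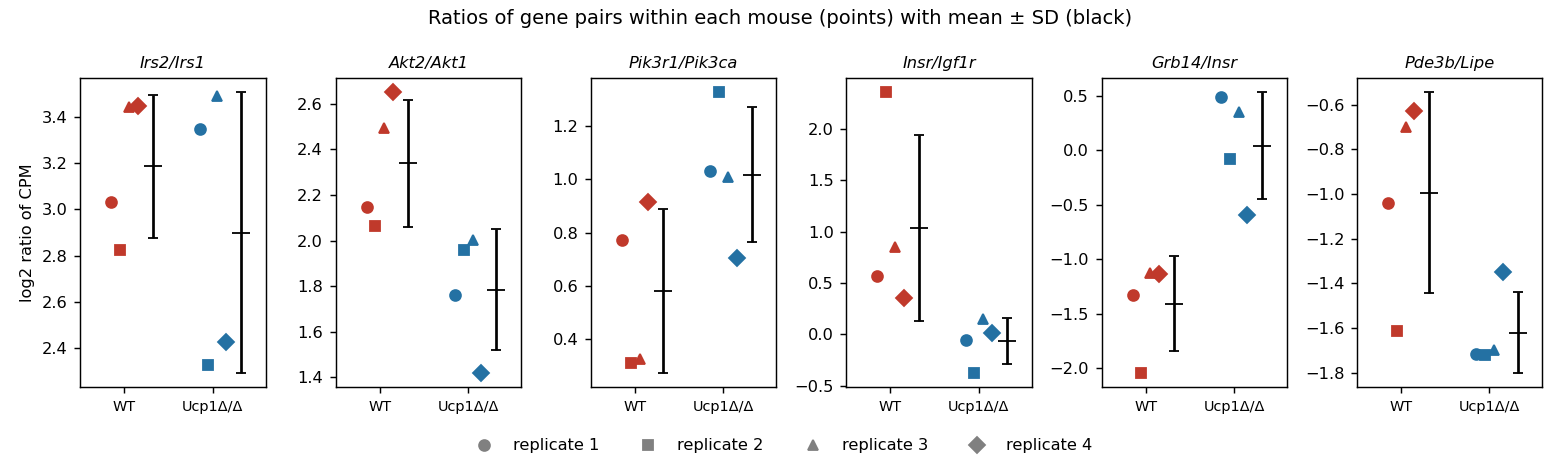
Log2 ratio of CPM of 6 gene pairs by mouse, WT in red and Ucp1Δ/Δ in blue, with the mean ± SD (n = 4) in black. Akt2/Akt1, Insr/Igf1r and Grb14/Insr do not overlap between genotypes (differences of -0.55, -1.10 and 1.45), and in Insr/Igf1r WT mouse 2 stands alone at 2.35 (difference -0.66 without it).

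The rest of the pathway was read from 10 lists arranged by role, which besides the 10 genes held 117 others. Of these, 98 were tested, and 19 were higher (19.4%, against 13.3% of all genes) and 5 lower (5.10%, against 7.63%). With the mice highest in muscle markers left out these became 9 and 2. Calls over the whole table fell in that setting too, to 816 higher and 279 lower of 8944 genes tested. Among the pathway genes the lower count was 3 without WT mouse 1, WT mouse 3 or Ucp1Δ/Δ mouse 4, and 2 without Ucp1Δ/Δ mouse 2. The median log2FC of the 98 genes was 0.09. In the mTORC1 arm (10 tested), the phosphoinositide and AKT phosphatases (7 tested) and the RAS and MAPK arm (14 tested), edgeR called none, with 1, 2 and 3 genes at an unadjusted p under 0.05. Limma voom called 1 phosphatase and 1 gene of the RAS arm, DESeq2 called 1 phosphatase, and limma trend called none of these lists.

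Among ligands, receptors and IGF-binding proteins, 6 of the 9 genes tested were higher, against 13.3% of all genes (median log2FC of the list 1.39). Igf1, the growth factor that signals through a sister receptor, was read at 33.7, 38.1, 18.0 and 30.9 CPM in WT mice and at 141, 107, 65.2 and 97.0 CPM in Ucp1Δ/Δ mice 1 to 4. All Ucp1Δ/Δ mice exceeded all WT mice (log2FC 1.78, adjusted p = 0.000135). The other 5 were IGF-binding proteins, which hold IGFs in the extracellular space, with Igfbp7 (log2FC 1.24), Igfbp4 (1.48) and Igfbp5 (1.39) at adjusted p values of 0.000129, 0.000153 and 0.000176. Igf1r itself did not pass (log2FC 0.79, 95% interval 0.12 to 1.47, adjusted p = 0.0931). Macrophage and fibroblast markers were higher in the same mice, and their part in these differences was not tested.

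Among inhibitors of receptor signalling, 5 of the 7 genes tested were higher, Grb14 included, against 13.3% of all genes (median log2FC of the list 1.25). Grb10, the closest relative of Grb14, was at 2.0 to 4.56 CPM over the WT mice and rose to 6.87 to 12.7 CPM over the Ucp1Δ/Δ mice (log2FC 1.36, adjusted p = 0.0109), values of few counts, and did not pass with the mice highest in muscle markers left out (adjusted p = 0.0627). Sh2b3 encodes an adaptor that restrains cytokine receptors in blood cells (log2FC 1.30, adjusted p = 0.00783). Ptpn1, the phosphatase PTP1B that dephosphorylates the insulin receptor, rose by a log2FC of 0.65 (adjusted p = 0.0309), a call that removal of any of 5 of the 8 mice ended. Socs2, which restrains growth hormone signalling, was read at 10.8 to 19.4 CPM in WT and at 47.8, 30.2, 12.1 and 59.2 CPM in Ucp1Δ/Δ mice 1 to 4 (log2FC 1.38, adjusted p = 0.0147). Ucp1Δ/Δ mouse 3 lay within the WT range, and without Ucp1Δ/Δ mouse 1 or 4 the call was lost (adjusted p = 0.0515 and 0.0665).

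**Figure D5:**
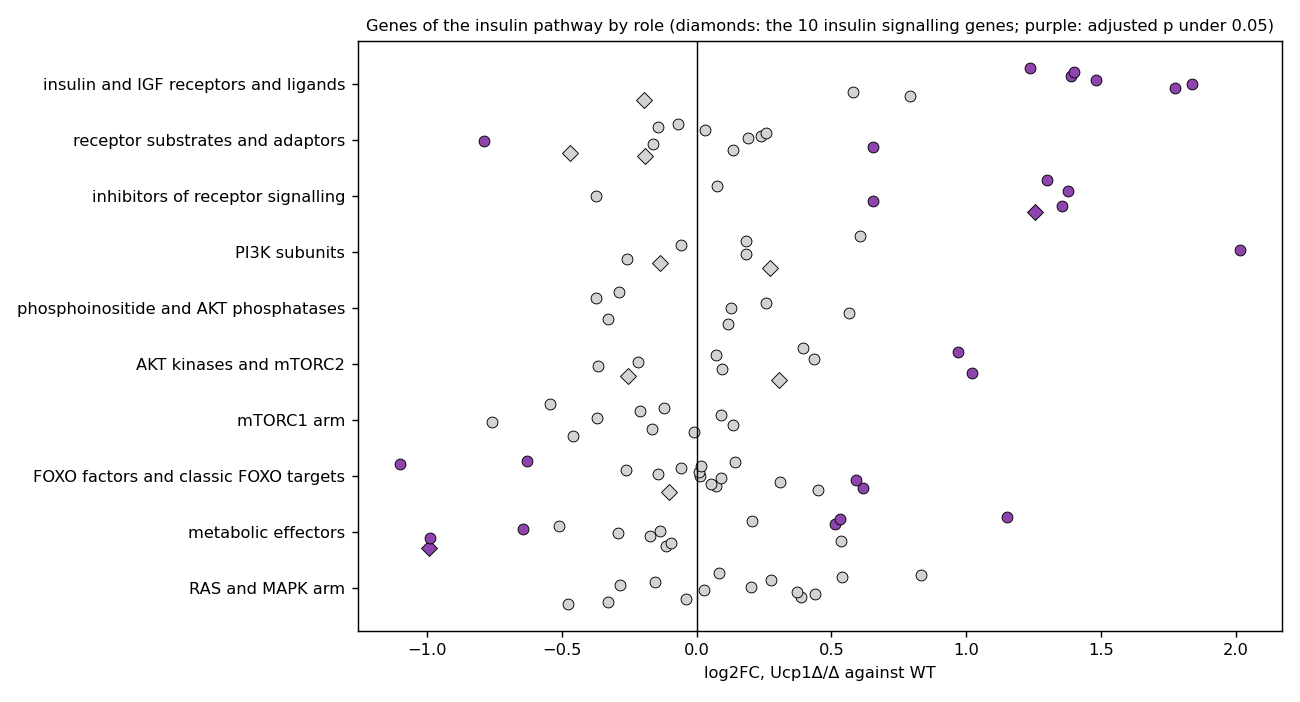
Log2FC (Ucp1Δ/Δ against WT) of the tested genes of 10 role lists of the insulin pathway, with the 10 insulin signalling genes as diamonds and genes with an adjusted p under 0.05 in purple. The list of ligands, receptors and IGF-binding proteins (6 of 9 higher) and that of inhibitors (5 of 7 higher) hold most of their points to the right of 0. Insr (-0.20) and Ptpn2 (-0.37) lie to its left.

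Of 12 substrates and adaptors tested, 1 was higher and 1 was lower, against 13.3% and 7.63% of all genes. Grb2, the adaptor that leads to RAS, rose by a log2FC of 0.66 (adjusted p = 0.0191, lost without WT mouse 3 or Ucp1Δ/Δ mouse 2). The Grb2 call was also lost with the mice highest in muscle markers left out (edgeR adjusted p = 0.132). Sh2b2, an adaptor of the insulin receptor that is abundant in fat, fell by 0.79 on the log2 scale (adjusted p = 0.0316), although Ucp1Δ/Δ mouse 3, at 109.9 CPM, lay within the WT range of 94.2 to 131 CPM and the call was lost on removal of any of 5 mice. Of 8 PI3K subunits tested, 1 was higher and 0 lower, against 13.3% and 7.63% of all genes. It was Pik3cd, the p110 delta subunit found mainly in white blood cells (log2FC 2.02, adjusted p = 0.00109). Its raw counts were few, at 6, 4, 5 and 6 in WT mice 1 to 4. Macrophage markers were higher in the Ucp1Δ/Δ mice, and their part in the Pik3cd difference was not tested. Of 10 genes tested of the AKT and mTORC2 list, 2 were higher and 0 lower, against 13.3% and 7.63% of all genes. Deptor, an inhibitor of mTOR and 1 of those 2, rose from 285 ± 46.3 to 558 ± 56.8 CPM (log2FC 0.97, adjusted p = 0.000655).

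Of 17 FOXO factors and genes they classically activate tested, 2 were higher and 2 lower, against 13.3% and 7.63% of all genes. Their median log2FC was 0.02. Foxo4 (log2FC 0.62, adjusted p = 0.0234) and the repressor gene Bcl6 (0.59, adjusted p = 0.0422) were higher, and removal of any of 3 and 5 mice, respectively, ended those calls. Cat, which encodes the peroxisomal enzyme catalase, was lower (log2FC -1.10, adjusted p = 0.00280), as was Bnip3, a mitophagy receptor (-0.63, adjusted p = 0.0399, lost on removal of any of 6 mice). Pdk4, a kinase that shuts pyruvate out of oxidation and a well-known FOXO1 target, had a log2FC of 0.07 (95% interval -0.30 to 0.44).

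Of the 14 metabolic effectors tested, 3 were higher and 3 were lower, Pde3b among the latter, against 13.3% and 7.63% of all genes. Slc2a4, which encodes GLUT4, was read at 156, 184, 144 and 128 CPM in WT mice 1 to 4 and at 76.4, 78.1, 66.9 and 86.7 CPM in Ucp1Δ/Δ mice 1 to 4. The genotypes did not overlap, and the log2FC of -0.99 (adjusted p = 0.000642) was about that of Pde3b. Hk2, the hexokinase that traps glucose in insulin-sensitive tissues, fell by 0.64 on the log2 scale (adjusted p = 0.0139, 0.0576 without Ucp1Δ/Δ mouse 2). With the mice highest in muscle markers left out Hk2 did not pass either (edgeR adjusted p = 0.160). Of 7 adipocyte markers, 3 were lower (among them Adipoq at 0.566 and Plin1 at 0.532 of WT) and 1 was higher. The part of the adipocyte marker change in those of Slc2a4 and Hk2 was not tested. The 3 higher genes, Stxbp3 (log2FC 1.15, adjusted p = 0.00786), Rhoq (0.51, adjusted p = 0.0316) and Stx4a (0.53, adjusted p = 0.0385), encode parts of the machinery that brings GLUT4 vesicles to the membrane, and the calls of Rhoq and Stx4a were each lost on removal of any of 7 mice. Tbc1d4, the AKT substrate that holds GLUT4 inside the cell, had a log2FC of -0.09 (95% interval -0.55 to 0.36).

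Over the 8 mice, the genes whose log2 CPM followed that of Pde3b most closely were Cep70, Trit1 and Epb41 (Pearson r of 0.993, 0.991 and 0.99), and those that followed Grb14 were Slc48a1, Cygb and Smad1 (0.984, 0.982 and 0.98). These values describe 8 points that fall into 2 genotypes, picked as the highest among all genes tested. Of the 6, Epb41 did not pass the test between genotypes (log2FC -0.32, adjusted p = 0.150).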

How the data were processed

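BAT RNA of 4 WT and 4 Ucp1Δ/Δ mice was made into digital mRNA-seq libraries and read single-end. The study's methods name trimming with bbduk, alignment to mm10 with STAR and counting with HTseq-counts, whereas the submitters' processing notes name Trimmomatic, HISAT2 and DESeq2 with GRCm38/mm10. Strand setting and annotation release are not given in the sources used here. The authors deposited whole-number counts per Ensembl gene without normalization, and log2 values that equal log2 of the count over 1 factor per mouse, plus 1. A sample sheet was not used.

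Symbols, positions and exons came from GENCODE annotation of mm10 (30934 of 31053 identifiers matched) and promoter sequences from RefSeq. After edgeR's default filter on low counts and TMM scaling, genotype was fitted with edgeR 4.0.16 (limma 3.58.1, DESeq2 1.42.0, R 4.3.3), and p-values were adjusted by Benjamini-Hochberg over all 8930 genes tested, at 0.05. The SE of a log2FC is its absolute value divided by the root of F. CPM uses TMM sizes, and ratios a prior count of 2. Chi-square between mice of a genotype was 4.69 to 23.2 times that of counting alone, so none was counted as a duplicate, and p-values measure the spread between these mice only. The depth of 2017697 to 3115956 counts sets the precision of low genes.

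The 10 genes, the role lists, markers and pairs were chosen with earlier results of these data known, so no p was computed over a list. Genes named were the 10, Pnpla2, up to 4 per list and direction with the smallest adjusted p under 0.05, and the 3 closest in pattern to Pde3b and to Grb14. Lep, Cidec, Fabp4, Lipe, Pparg, Igf1r, Ptpn2, Pdk4 and Tbc1d4 were named after their values were seen. Alternatives were other scaling, tests and filters, a block for replicate number, removal of single mice and, chosen after seeing the data, leaving out the mouse of each genotype highest in skeletal muscle markers. A gene that the naming rule picked is not reported here.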

Additional observations from a re-analysis of the deposited data

Results flagged for a closer look

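Within groups of 4 mice, the highest or lowest mouse was set against the rest by the share of the group's range that its gap to the nearest mouse took, and values above Dixon's 95% critical value were singled out. Of 90 groups of gene levels and ratios checked, 5 passed, where chance gives about 4.5. Irs1 in WT mouse 4 had a log2 CPM of 3.86, beside 4.29 to 4.38 in the other WT mice (share 0.834). Pik3ca in Ucp1Δ/Δ mouse 4 stood at 5.77, beside 5.18 to 5.27 in its group (share 0.843). For the Pde3b to Lipe log2 ratio, Ucp1Δ/Δ mouse 4 had -1.35, beside -1.72 to -1.70 (share 0.932). Igfbp4 in WT mouse 2 was at 4.81, beside 5.61 to 5.67 (share 0.925), and Foxo4 in WT mouse 4 at 5.20, beside 5.64 to 5.73 (share 0.832).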

How the results depend on the processing

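Grb14 and Pde3b kept their direction and call in all 17 alternatives. With single mice left out, the log2FC of Grb14 was 1.07 to 1.35 (edgeR adjusted p 0.00143 to 0.00495) and that of Pde3b -1.09 to -0.92 (0.000192 to 0.00505). With limma voom and sample quality weights Irs2 was also called, which made 2 of the 10 genes lower. The log2FC of Foxo1 was 0.039 with total counts only and 0.029 with voom, and -0.22 to 0.048 with single mice left out, turning above 0 without WT mouse 4. The log2FC of Pik3ca was 0.00082 with total counts only. That scaling moved the median over all genes from -0.01 to 0.13 and the calls from 1191 higher and 681 lower to 1478 and 404. Foxo1 and Pik3ca thus lay below the shifted median with total counts only. With voom and without WT mouse 4 the median was 0.0031 and 0.00032, below the Foxo1 values there. The other 8 genes kept their sign in every alternative. Pathway genes outside the 10 called lower numbered 3 with total counts only (24 higher) and 2 to 6 with single mice left out (5 in the report; 3 without WT mouse 1, WT mouse 3 or Ucp1Δ/Δ mouse 4, and 2 without Ucp1Δ/Δ mouse 2), and those called higher 13 to 19 (19 in the report, 22 with voom, 23 with at least 1 count in any mouse, and 15 to 19 with the remaining scalings, tests and filters). With the mice highest in muscle markers left out they numbered 2 lower and 9 higher, and 1095 genes were called in all, 279 lower and 816 higher (1872 in the report). With at least 10 counts in every mouse 1195 were called. The cause was not tested, beyond fewer mice or genes entering those fits. Of 28 other genes named, 15 lost their call in at least 1 alternative and none turned. The 6 ratios stayed at adjusted exact permutation p values of 0.0571 or above, also with another prior count. Replicate numbers of the genotypes were not tied to shared animals, and same-numbered mice correlated at -0.0873, -0.196, 0.304 and 0.241, only number 3 being best matched by its own. With the replicate block 1719 genes were called, Grb14 at 1.28 (adjusted p = 0.00162) and Pde3b at -0.98 (0.00101), with 1 higher and 1 lower of the 10, and 18 higher and 5 lower of the other pathway genes. Genes of few counts were limited by depth.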
